A study of Homo sapiens with 4 samples.

Results

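Peaks of N7-methylguanosine (m7G) enrichment that join 2 neighbouring exon blocks across a short gap were examined in HepG2, a human hepatocellular carcinoma cell line grown without treatment. They came from m7G MeRIP-seq. In this assay an anti-m7G antibody enriches modified fragments of polyadenylated RNA, and the enriched and the input RNA are sequenced from stranded libraries. There were 2 samples of input and 2 of immunoprecipitated (IP) RNA. The latter, replicates 1 and 2, each had a peak list, and every fold enrichment, p-value and block structure given here is the authors' own value for that peak. A peak was included when it was listed with exactly 2 blocks and the genomic gap between them was under 5000 bp. This gave 500 of the 3355 peaks of replicate 1 (14.9%) and 745 of the 4747 peaks of replicate 2 (15.7%), or 1245 of 8102 in all, hereafter short-gap peaks. They lay in 462 and 675 genes and spanned 1002 distinct gaps. The depth is unknown, and whether the replicates were separate cultures is not stated in the labels. Where a peak is missing, less m7G and less RNA of the gene cannot be told apart. Of 14 hepatocyte marker genes, 7 had a peak in each list, among them APOB and TF, compared with 1 of 12 endothelial and stellate markers (ACTA2) and 2 of 10 immune markers (CD68 and LYZ).

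N7-methylguanosine is best known as the cap at the 5' end of mRNA, and it also occurs inside tRNA, rRNA and mRNA, where the METTL1-WDR4 complex is a known writer. In a pre-mRNA, an intron usually begins with GU and ends with AG. The spliceosome removes it and joins the exons, so a fragment of mature mRNA can map to 2 exons with a gap between them. Neither METTL1 nor WDR4 had a peak in either list, and the RNA-binding protein QKI had 2 peaks, of which 0 were short-gap peaks.

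The letters at the gaps' edges were read where an edge fell in a RefSeq window around an annotated gene start (GRCh38.p14; 250 bases before to 50 after each of 35116 starts, on the gene's own strand). This was possible for 39 distinct gaps at the upstream edge and 4 at the downstream edge. All 39 upstream edges read GT (34 gaps) or GC (5 gaps) as the first letters of the gap, and all 4 downstream edges read AG as its last letters. Over every position of all windows, on the strand of the gene, 4.62% of letter pairs are GT, 8.7% are GC and 7.26% are AG, while 99.96% of windows hold a GT and 99.99% an AG somewhere. Of the 38 edges with 6 letters in the window, 16 began GTGAG and 4 began GTAAG. The full GTGAGT stood at 7 of these 38 edges and GTAAGT at 2. Somewhere in their 300 nt, 7.25% of all windows hold GTGAGT and 3.4% hold GTAAGT. These shares count any position of a window, so they are no rate for a fixed edge. No share was computed for GTGAG or GTAAG. The lines below show 8 of these edges, chosen to include gaps of strongly enriched peaks and both kinds of edge. Lower-case letters are the last bases of the upstream block (up to 24) and capitals are the first 6 bases of the gap.
PABPN1 (chr14:23321797-23321826, plus strand): ggggacggcgccattgaggacccgGTGAGG
ELOB (chr16:2777231-2777260, minus strand): aggggagaggcagcagccgcgatgGTGAGC
MPND (chr19:4343586-4343606, plus strand): gcgcggccatggcagGTACGG
ARPC2 (chr2:218217231-218217260, plus strand): gcgggttcaggcttcgggggccagGTCGGT
XBP1 (chr22:28800292-28800321, minus strand): ccccgaggagaaggcgctgaggagGTGGGC
EEF1A1 (chr6:73520994-73521023, minus strand): aacgggtttgccgccagaacacagGTAAGT
CTDNEP1 (chr17:7251793-7251822, minus strand): cttccctgctccttcgctctgcagGCCCGT
ATP6V0C (chr16:2513753-2513782, plus strand): cggcgcccggaaacacccgcggagGCCGAG
The first 6 edges open with GT and the last pair with GC. The XBP1 gap is 1144 bp long, and the MPND peak keeps only 15 bases before its gap in both lists. These windows hold only starts of genes, so the letters describe gaps near a start and not the rest. Blocks cut at annotated exon ends would carry such letters whatever the reads were, and how the blocks were set is not given.

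The gaps spread widely in length. The median gap was 639 bp in replicate 1 (quartiles 225 and 1650) and 666 bp in replicate 2 (225 and 1702). The shortest gap was 69 bp, in B4GALNT4 (fold 3.35, replicate 1). Gaps of 73 bp came next, in ARSA, the lysosomal arylsulfatase A (fold 2.79, replicate 2), GIGYF1 (4.02, replicate 1), PIM3 (2.58, replicate 1), OBSL1 (5.62, replicate 2) and POR, the cytochrome P450 reductase. That of POR was the only one of these 73 bp gaps in both lists, with folds of 1.94 and 2.15 at -log10 p of 16.3 and 21.1. Gaps of 75 to 100 bp were found in 36 peaks of replicate 1 and 68 of replicate 2. Of the gaps, 499 of 500 and 742 of 745 lay wholly inside the span of the named gene. No block of any peak of the same gene, in either list, touched a short-gap peak's gap. Taken as 3 counts of the total, the limit that a count of 0 allows is 0.6% of replicate 1 and 0.403% of replicate 2 peaks, and the upper Wilson limits are 0.762% and 0.513%. How the blocks were set is not given. If they were placed on annotated exons only, no block could touch such a gap, so the count of 0 says nothing of reads inside the gaps.

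**Figure D1:**
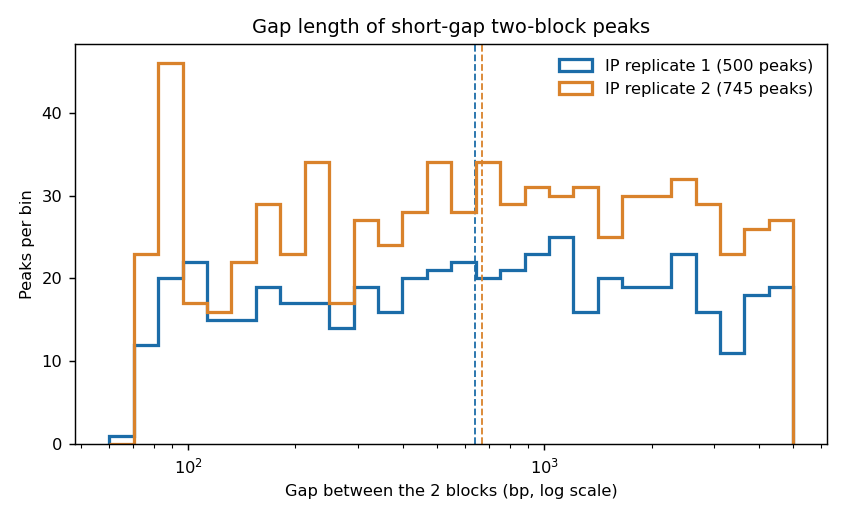
Number of short-gap peaks by length of the gap between their blocks (bp, log scale), in equal log bins, for the 500 peaks of replicate 1 and the 745 of replicate 2. Dashed lines mark the medians, 639 and 666 bp; the lengths spread over the whole range from 69 bp up to the limit of 5000 bp, with 68 gaps of 75 to 100 bp in replicate 2.

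Short-gap peaks covered a median of 180 nt of exon in replicate 1 (quartiles 120 and 240) and 151 nt in replicate 2 (120 and 211). Peaks without a gap, called single-block peaks, had a median of 150 nt in both lists. Lengths lay within 1 nt of a multiple of 30 for 81.6% and 85.4% of short-gap peaks and for 91.8% and 92.4% of single-block peaks, so boundaries follow a grid in both kinds. Blocks of exactly equal size were found in 2 peaks of replicate 1 and 4 of replicate 2. The smaller of the 2 blocks had a median of 36.5 nt in replicate 1 and 34 nt in replicate 2, and it was under 10 nt in 70 peaks (14%) and 118 peaks (15.8%). HSPA5, the ER chaperone BiP, is an example, with 353 nt upstream and 6 nt downstream of a 97 bp gap in replicate 1 (fold 1.58). The block nearer the 5' end of the mRNA was the larger in 62.8% and 60.1% of peaks. Where the midpoint lay within 200 nt of the gene's 5' end it was the larger in 99.3% and 98.7%, which follows largely from measuring along the genome, since a midpoint beyond the gap adds the gap to its distance. Among the others it was the larger in 48.3% and 50.1%.

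Recurrence was examined next, that is, whether the other list held the same peak and the same gap. In replicate 1, 345 of 500 short-gap peaks (69.0%, 95% Wilson interval 64.8 to 72.9%) overlapped a replicate 2 peak of that gene by at least 50% of the shorter peak, beside 65.1% of all replicate 1 peaks. In replicate 2 it was 351 of 745 (47.1%, 43.5 to 50.7%), beside 45.4% of all peaks. The shares of single-block peaks were 62.5% (60.6 to 64.4%) and 42.1% (40.5 to 43.8%). The short-gap share was the higher in both lists, but the intervals cover counting error only, and they overlapped in replicate 2. Among peaks of 100 to 300 nt the shares were closer, 72.9% against 69.1% in replicate 1 and 48.5% against 47.6% in replicate 2. Other spliced peaks had shares as high or higher, 69.1% and 59.2% for 2 blocks with a gap of 5000 bp or more and 83.6% and 64.7% for 3 or more blocks. No test was run, because peaks are not replicates of the condition. The share rose with the strength of the call. Among the 125 short-gap peaks of replicate 1 with the smallest -log10 p it was 34.4%, and among the 125 with the largest it was 96.8%. In replicate 2 it was 13.98% of the 186 with the smallest and 90.4% of the 187 with the largest. Single-block peaks rose much alike, so the rise was not particular to short-gap peaks. Their share went from 35.17% of the 617 with the smallest -log10 p to 93.53% of the 618 with the largest in replicate 1. For replicate 2 it went from 15.14% of 852 to 86.99% of 853. The short-gap share was slightly the lower among the weakest calls and the higher among the strongest, in both lists, but no intervals were computed for these sets. They were ranked within each kind and are not of equal strength. The strongest had a median -log10 p of 26 for short-gap and 12.5 for single-block peaks in replicate 1, and 16.9 and 11.1 in replicate 2.

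A stricter measure was the gap itself. Blocks set on annotated exons would give equal gap ends wherever 2 peaks span the same exons, and this was not tested. The identical gap, with both ends equal to the base, stood in the other list for 285 of 500 peaks of replicate 1 (57.0%, 52.6 to 61.3%) and 276 of 745 of replicate 2 (37.0%, 33.7 to 40.6%), beside 61.6% and 41.3% of all spliced peaks. Peaks of 3 or more blocks, counted when any of their gaps recurred, had shares of 80% and 60.55%. Peaks of 2 blocks with a gap of 5000 bp or more had 54.97% and 33.55%, with intervals that overlap those of short-gap peaks. Allowing 10 nt at each end added none to the short-gap counts. Of the other short-gap peaks, only 4 and 5 met a spliced peak with other gaps. A single-block peak overlapped 65 of the replicate 1 peaks (13.0%) and 85 of the replicate 2 peaks (11.4%). In 55 and 77 of these it lay on the larger block alone. The smaller block of these peaks had a median of 30 nt and 21 nt, compared with 50 and 49.5 nt where the other list had the same gap in a peak of 2 blocks. Another 63 and 154 peaks had no overlapping peak but another peak of the gene, and 83 (16.6%) and 225 (30.2%) lay in a gene with no peak at all in the other list. These last had median -log10 p of 4.61 and 4.16, compared with 9.02 and 8.88 for gaps found in 2-block peaks of both.

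**Figure D2:**
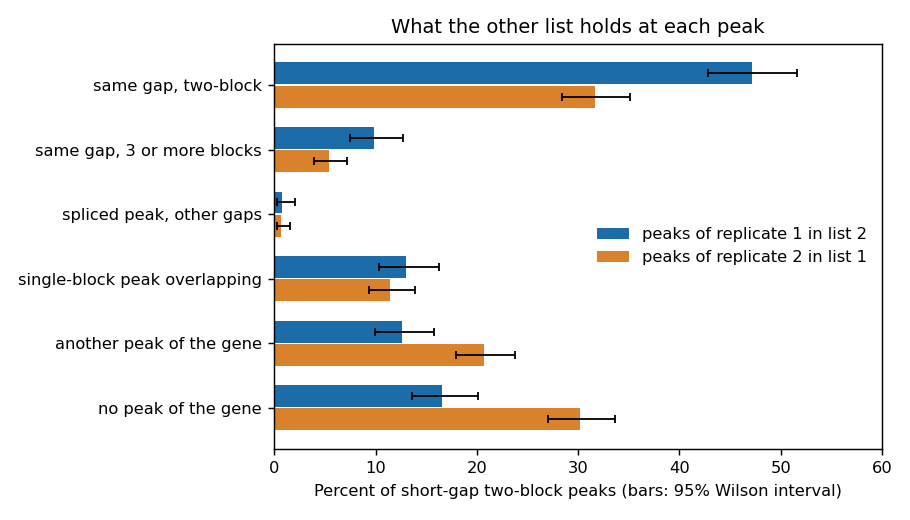
Percent of short-gap peaks of each list by what the other list holds at the same place, with 95% Wilson intervals (500 peaks of replicate 1, 745 of replicate 2). The same gap in a 2-block peak is the commonest class for both, 47.2% of replicate 1 and 31.7% of replicate 2, and spliced peaks with other gaps are the rarest, under 1% in each.

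In all, 236 gaps in 230 genes, counted once per named gene, were spanned by a short-gap peak in both lists. The gap of 957 bp listed for both PABPN1 and BCL2L2-PABPN1 therefore enters these counts once for each name. Fold ranked similarly in the 2 lists over these gaps (Spearman's rho = 0.797, n = 236, a description without a test), where both lists may share an input library. The folds of 167 gaps (70.8%) lay within 1.5 times of each other and those of 26 (11.02%) differed by more than 2 times. Fold was higher in replicate 1 at 124 gaps and in replicate 2 at 110. The -log10 p ranked similarly too (rho = 0.776). Both outer ends of the peak were also identical at 44 gaps (18.6%), and the lengths differed by a median of 30 nt, which is the step of the grid.

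**Figure D3:**
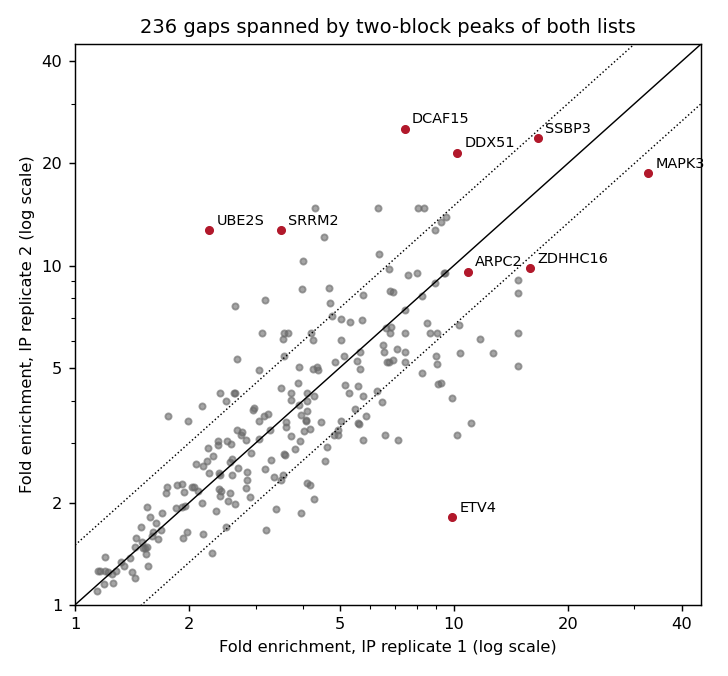
Fold enrichment in replicate 1 against replicate 2 (both log scales) for the 236 gaps spanned by short-gap peaks of both lists; the solid line marks equal folds and dotted lines mark 1.5 times. The points follow the line from folds near 1 up to MAPK3 at 32.6 and 18.7, which is marked in red with 8 other genes. Of these, UBE2S, SRRM2, DCAF15 and ETV4 lie far from the line.

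The best supported of these gaps, by the lower of their ranks by -log10 p, lay in mRNAs of iron storage, protease inhibition and RNA binding. FTH1, the ferritin heavy chain, had a gap of 1796 bp on chromosome 11 from 61965516 to 61967311 (GRCh38), with 319 nt before it and 41 nt after it in both lists. Its folds were 2.70 and 2.53 at a -log10 p of 916 and 738, the highest of all short-gap peaks in each list. A2M, the protease inhibitor alpha-2-macroglobulin, had folds of 5.63 and 3.40 over a gap of 2220 bp, with -log10 p of 829 and 378. PABPN1, the nuclear poly(A)-binding protein whose gap edge is shown above, had folds of 10.3 and 6.69 over a gap of 360 bp (-log10 p 373 and 357). PCBP2, a poly(C)-binding protein, had folds of 5.57 and 4.41 over 2349 bp (-log10 p 373 and 279). YBX1, a cold-shock domain RNA-binding protein, had folds of 3.80 and 2.87 over 671 bp, and only 11 nt of its peak lay after the gap in either list. CCN2, a secreted matricellular protein, had folds of 3.95 and 3.63 over 114 bp. IGF2 had folds of 1.69 and 1.66 over 293 bp, with identical blocks of 105 and 434 nt in both lists. Among these mRNAs, strong support thus stood beside folds from 1.66 to 10.3. FTH1 has many processed pseudogenes, and reads of such copies cannot be told apart in these lists.

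ARPC2, a subunit of the actin-nucleating Arp2/3 complex, carried 2 gaps found in both lists. The gap from 218249922 to 218253890 on chromosome 2 lay toward the 3' end of the gene, and had folds of 10.9 and 9.58 at -log10 p of 265 and 212. The gap of 208 bp near the 5' end, from 218217255 to 218217462, had folds of 12.7 and 5.54 with -log10 p of 14.6 and 8.70. The first pair of folds lay within 1.5 times of each other and the second did not.

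Ranked by fold, the leading gaps were those of SSBP3, MAPK3 and DDX51. SSBP3, a DNA-binding cofactor of transcription, had folds of 16.7 and 23.7 over a gap of 1022 bp. MAPK3, the kinase ERK1, had folds of 32.6 and 18.7 over a gap of 1033 bp (-log10 p 55.2 and 51.0), with 26 nt after the gap in both lists. DDX51, a DEAD-box RNA helicase, had folds of 10.2 and 21.5 over a gap of 83 bp. ZDHHC16, a palmitoyltransferase, had folds of 15.9 and 9.84 over 4003 bp, and PIGQ, of GPI anchor synthesis, had 9.54 and 13.9 over 3969 bp. TOMM40, the channel of the mitochondrial outer membrane import complex, had folds of 9.48 and 9.49 over a gap of 92 bp, with the same blocks of 95 and 206 nt in both lists (-log10 p 67.1 and 49.7). NFKB2, the NF-kappa-B p100 precursor, had folds of 9.40 and 9.49, and CEP131, a centrosomal protein, had 8.90 and 8.86 at -log10 p of only 3.77 and 3.64. TSEN54, a subunit of the tRNA splicing endonuclease, had folds of 14.8 and 9.04 over 129 bp. MPND (9.27 and 13.4 over 107 bp) and TDRP (8.90 and 12.7 over 768 bp) complete the 12. TOMM40, NFKB2 and CEP131 were nearly equal in the lists, and DDX51 differed by more than 2 times.

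**Figure D4:**
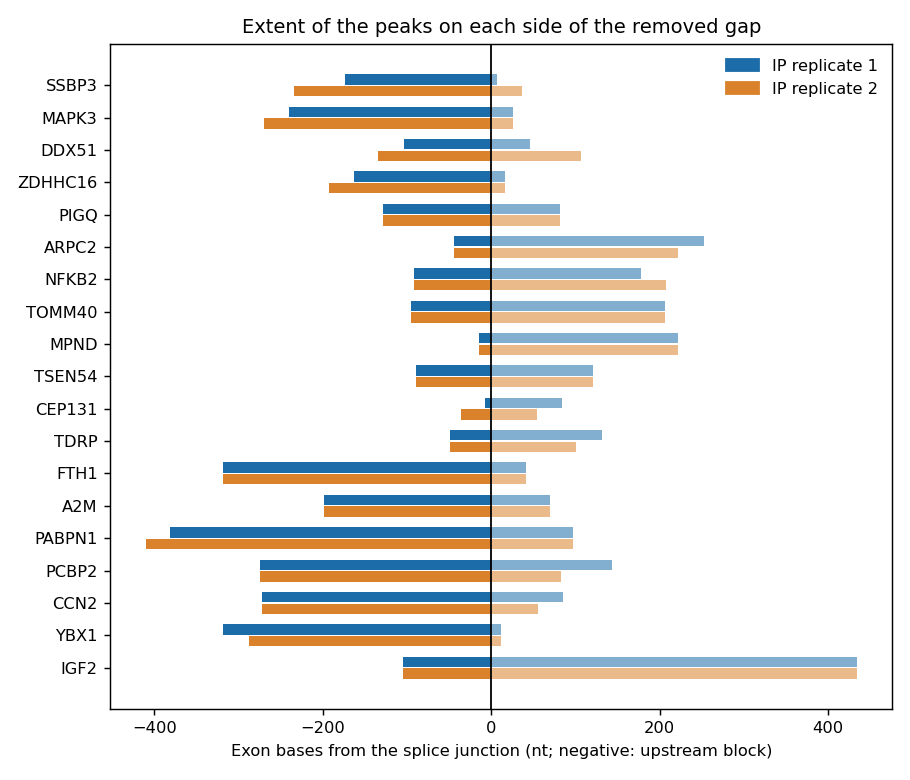
Exon bases (nt) covered by the peaks of each list before the gap (negative) and after it (positive), for the 12 gaps with the best ranks by fold and the 8 by -log10 p, ARPC2 being in both; darker bars lie before the gap and lighter bars after it. FTH1, A2M, TOMM40, PIGQ, MPND, TSEN54 and IGF2 have the same extent in both lists; at YBX1 and ZDHHC16 the peak reaches 11 and 16 nt past the gap.

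The widest differences between the lists at the same gap were found in 5 genes. UBE2S, a ubiquitin-conjugating enzyme of mitosis, had folds of 2.26 and 12.7. ETV4, an ETS transcription factor, had folds of 9.89 and 1.81, the only one of the 5 that was higher in replicate 1. SRRM2, a scaffold of the spliceosome, had 3.49 and 12.7, HNRNPUL2 had 4.30 and 14.8, and DCAF15, a substrate receptor of a ubiquitin ligase, had 7.42 and 25.3. The -log10 p of these peaks was between 3.40 and 16.3. Folds recur within each list, 7.42 at 15 short-gap peaks of replicate 1 and 6.33 at 33 of replicate 2 (3.0% and 4.43%, against 3.19% and 4.13% of all peaks). Both folds of DCAF15 equal, within rounding, a whole multiple of these values, as do the 12.7 of UBE2S, SRRM2 and TDRP in replicate 2 and the 14.8 of TSEN54.

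Of the 30 short-gap peaks of replicate 1 with a fold above 10, 18 had the same gap in replicate 2, beside 57.0% of all its short-gap peaks, and 10 lay in a gene with no peak there. In replicate 2 these numbers were 18 and 13 of 40, beside 37.0% of all with the same gap. The highest fold of replicate 1 was 37.1, which is also a whole multiple of 7.42 within rounding. It was listed, among others, for NME6, a nucleoside diphosphate kinase family member (-log10 p 4.08), the chloride channel CLCN2 (5.27) and the Argonaute partner TNRC6A (4.64), none of which had a peak in replicate 2. The highest of replicate 2 was 44.3 for EIF4ENIF1, the eIF4E transporter 4E-T (-log10 p 5.43), without a peak in replicate 1, and it too is a whole multiple of the commonest fold of its list, 6.33, within rounding. These genes were chosen after their values were seen.

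As a group, short-gap peaks had lower folds and smaller p-values than single-block peaks. The median fold was 3.33 in replicate 1 (quartiles 2.03 and 5.49), against 3.89 (2.57 and 5.77) for single-block peaks. In replicate 2 it was 3.49 (2.30 and 5.37), against 3.95 (2.70 and 6.33). The difference was -0.51 ± 0.067 (SD, n = 2), and it ran the same way in both lists. The median -log10 p was higher, 6.63 against 5.10 in replicate 1 and 5.45 against 4.80 in replicate 2. Folds under 2 made up 24.2% of short-gap peaks and 14.7% of single-block peaks in replicate 1, and 17.9% and 11.9% in replicate 2. Within 200 nt of the 5' end the median folds were 4.005 against 5.05 in replicate 1 and 4.31 against 5.14 in replicate 2, and elsewhere 3.15 against 3.55 and 3.39 against 3.66, so that the order was the same at both places. With only the 50% of peaks of smallest p in each list, the difference widened to -0.94, and it narrowed to -0.335 without peaks at the 5' end. Peaks of 2 blocks with a gap of 5000 bp or more had medians of 4.05 and 4.005, and peaks of 3 or more blocks 2.66 and 3.68. Input values were not analysed here, and the part of a gene's read depth in its fold and p was not tested.

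**Figure D5:**
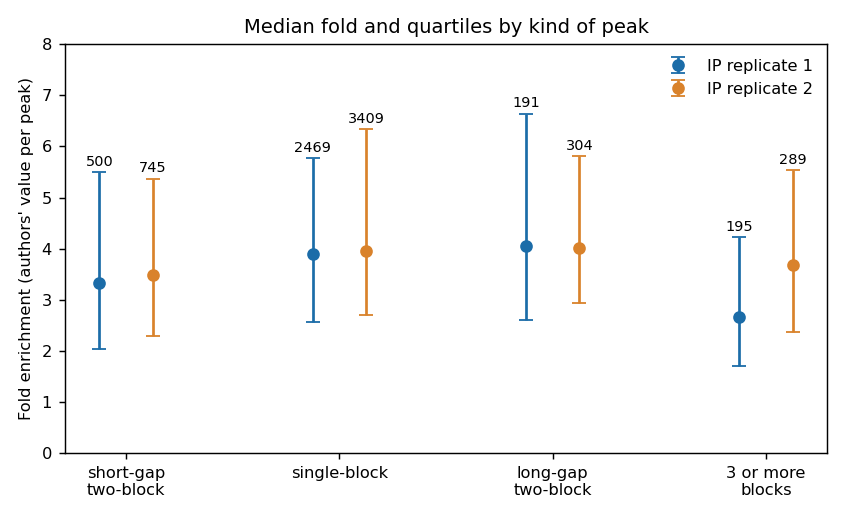
Median fold enrichment (points) with lower and upper quartiles (bars) by kind of peak in each IP replicate; the number of peaks stands above each bar. Short-gap peaks lie below single-block and long-gap peaks in both lists, and the quartile ranges of all kinds overlap.

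Fold hardly followed the length of the gap. The rank correlation over short-gap peaks was 0.058 in replicate 1 (n = 500) and 0.11 in replicate 2 (n = 745), given as a description. Gaps under 150 bp (81 and 120 peaks) had median folds of 3.37 and 3.33, and gaps of 1500 bp and more (138 and 218 peaks) had 3.53 and 3.90. The same gap recurred in the other list for 49.4% of the shortest and 63.0% of the longest class in replicate 1, and for 30% and 38.5% in replicate 2, with intervals that overlap in each list. Fold and -log10 p were also weakly ranked together over these peaks, at 0.0723 and 0.0588.

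Along the gene, 142 of 500 short-gap peaks of replicate 1 (28.4%, 24.6 to 32.5%) were centred within 200 nt of the 5' end, beside 27.4% of all peaks. In replicate 2 it was 154 of 745 (20.7%, 17.9 to 23.7%), beside 21.7%. Both shares lie near those of all peaks. Near the 3' end the short-gap peaks were few, 6 of 500 (1.20%, 0.551 to 2.59%) and 8 of 745 (1.07%, 0.545 to 2.10%), beside 3.43% and 3.48% of all peaks, and 4.38% and 4.59% of single-block peaks. A midpoint so close to the 3' end leaves little room for an exon block beyond a gap, so the rule itself bears on this share. These counts also take in any midpoint beyond the end. CBS in replicate 1 is such a case, with a distance of -36595836 nt to the 3' end of its matched span. Long-gap peaks of 2 blocks were at the 5' end in 49.7% and 42.1%. Among short-gap peaks the share at the 5' end was 19.8% and 7.5% for gaps under 150 bp, and 37.0% and 30.7% for gaps of 1500 bp and more. The genes of short-gap peaks had median spans of 13.0 kb and 17.7 kb, against 24.3 kb and 24.8 kb for single-block peaks, and those of peaks with 3 or more blocks were similarly short, at 13.02 kb and 19.5 kb. Genes of long-gap peaks of 2 blocks had spans of 43.65 kb and 48.62 kb. The limit on the gap itself bears on these spans, so they are no independent trait of short-gap peaks. Short-gap peaks also lay more often on chromosome 19 than single-block peaks, 17% and 17.4% against 11.6% and 12.2%. That share was not computed for other spliced peaks, and whether the gap limit bears on it was not tested.

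ELOB, the elongin B subunit of ubiquitin ligases and elongation complexes, had a peak at the 5' end in both lists. Its gap of 109 bp, shown above, opens 44 nt after an annotated start, and its folds were 5.6 and 3.44 at -log10 p of 43.0 and 19.3. EEF1A1, the elongation factor that brings aminoacyl-tRNA to the ribosome, had a peak of 33 nt and 57 nt around the gap that opens 33 nt after its start, in replicate 2 only, with a fold of 7.38 and a -log10 p of 3.36. CTDNEP1, a nuclear envelope phosphatase, whose gap opens with GC, had folds of 3.36 and 2.38 at -log10 p of 34.3 and 34.6. ELOB and CTDNEP1 were called in both lists and EEF1A1 in a single one.

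A total of 879 genes had a short-gap peak in either list, which is 23.3% of the 3771 genes with any peak. Of these, 258 had one in both lists, which is 55.8% of those in replicate 1 and 38.2% of those in replicate 2. The median fold over all short-gap peaks was 3.44. The gene groups that follow are given by their counts and medians, beside those values, and were not tested.

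Genes of RNA handling had medians on both sides of 3.44. SR proteins and hnRNPs had 21 genes with a peak, of which 9 had a short-gap peak (42.9%, median fold 3.67), 3 of them at the same gap in both lists. These were PCBP2, HNRNPU (folds 5.32 and 6.80 over 943 bp) and HNRNPA3 (4.64 and 2.92). Of 16 genes of the spliceosome core and RNA helicases, 10 had one (62.5%, median fold 3.02). SF1, the branch point binding protein, had 3.71 and 3.15, while SNRNP70, the U1 70K protein, had 6.16 in replicate 1 across a gap of 109 bp that belonged to a longer spliced peak in replicate 2. Among RNA modification enzymes and readers 4 of 17 genes had one (23.5%, median fold 4.75). The cytosine methyltransferase NSUN2 had folds of 5.77 and 8.19 at a gap of 127 bp with only 3 nt after it in replicate 1, and the m6A reader YTHDF1 had 3.07 in replicate 2.

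Both groups of translation genes had median folds under 3.44. In the cytosolic ribosomal proteins, 9 of 20 genes with a peak had a short-gap peak (45%), with a median fold of 1.34. RPLP1 had 1.93 and RPL28 had 1.98 in replicate 2, at -log10 p of 87.4 and 79.7. Translation factors had 11 of 27 (40.7%), with a median of 2. EIF1, which guides start codon choice, had folds of 2.18 and 1.62, and the release factor ETF1 had 2.16 and 2 over a gap of 160 bp, while EIF5A had 1.73 in replicate 1. Some members lay above the overall median, namely EEF1A1 (7.38) and EIF1AX (4.74) in replicate 2 and EIF3J (3.64) in replicate 1.

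The hepatocyte and metabolic groups had medians under 3.44 as well. Of 20 secreted protein genes with a peak, 9 had a short-gap peak (45%), with a median fold of 1.29, and 5 recurred at the same gap. They were APOB (1.25 and 1.23), the complement protein C3 (1.41 and 1.25), prothrombin F2 (1.32 and 1.34), transferrin TF (1.14 and 1.10) and IGF2. Each of these pairs lay within 1.5 times. Glycolysis had 3 of 8 genes and a median of 1.25, with aldolase ALDOA at 1.22 and 1.25 in the 2 lists, enolase ENO1 at 1.26 in replicate 2 and pyruvate kinase PKM at 1.32 in replicate 1. Hepatocyte transcription factors had 3 of 16 (18.8%, median 2.75), namely XBP1 (2.76 and 3.24), the orphan nuclear receptor ESRRA (2.31 and 2.75) and NR2F6 (1.93, replicate 2). Sterol and fatty acid synthesis had 4 of 13 (30.8%, median 2.84), with FASN (1.93) in replicate 2 and SREBF1 (2.13) in replicate 1.

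In the secretory pathway, 12 of 23 ER chaperone and unfolded protein response genes had a short-gap peak (52.2%, median fold 2.27), 5 of them at the same gap in both lists. P4HB, a protein disulfide isomerase, had folds of 1.49 and 1.70. HSP90B1, the ER chaperone GRP94, had 2.65 and 7.59 with -log10 p of 20.8 and 37.6, the widest ratio of the 5. MANF, a secreted ER stress protein, had 2.85 and 2.46, and the chaperone HYOU1 had 2.09 and 2.60 over 985 bp. XBP1 belongs to this list too. Trafficking and V-ATPase genes had 5 of 30 (16.7%, median 3.09). ATP6V0C, the proton channel subunit of the V-ATPase, had 2.92 and 2.80, RAB5C had 3.27 in replicate 1, and ARF6 had 11.9 in replicate 2 over a gap of 98 bp. Cytosolic chaperones had 2 of 12, HSF1 (2.15) and CCT4 (2.02), both in replicate 1 alone.

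Signalling, chromatin, replication and ubiquitin genes had medians above 3.44, and the cytoskeletal and oxidative phosphorylation lists had medians below it. The MAP kinase cascade had 5 of 25 genes (20%) and a median fold of 6.33, which is also the commonest fold of replicate 2. Beside MAPK3, the GTPase HRAS had folds of 14.8 and 6.33, both a whole multiple of the commonest fold, and MAP3K11 had 2.27 in replicate 2. Chromatin regulators had 17 of 51 (33.3%, median 3.57), with the acetyltransferase KAT8 at 4.17 and 2.25 and the SWI/SNF ATPase SMARCA4 at 3.30 and 2.68. Histone and replication genes had 6 of 12 (50%, median 4.38). The helicase subunit MCM2 had 5.65 and 4.95, the variant histone H2AZ2 had 2.68 and 5.31, and H3-3B had 1.28 and 1.26 over a gap of 83 bp. Proteasome and ubiquitin genes had 6 of 22 (27.3%, median 4.30). UBE2M, the NEDD8-conjugating enzyme, had 7.58 and 9.39 with -log10 p of 70.4 and 55.4, and PSMD3 had 4.09 in replicate 1. Actin, tubulin and adhesion genes had 8 of 19 (42.1%, median 2.86), with MYH9 at 3.56 and 2.79 and ZYX at 2.05 in replicate 2. Oxidative phosphorylation had 5 of 15 (33.3%, median 3.02), of which SLC25A6 had 2.42 and 2.41, ATP5F1D had 4.10 and 3.73 and SLC25A3 had 1.56 and 1.30. Of these, ATP5F1D lay above 3.44 in both lists, as did CYC1 (5.67 and 5.57), while SLC25A6 and SLC25A3 lay below. No gene of the endothelial and stellate or of the immune list had a short-gap peak, where 1 and 2 genes had any peak.

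Some gaps contained the gene of a small RNA, matched by position to the RefSeq table with a margin of 10 nt. Of the 1002 distinct gaps, a snoRNA gene lay in 5 and a miRNA gene in 11. The share over gaps of other spliced peaks is not given here, so whether these counts are unusual was not tested. The snoRNAs lay in ribosomal genes and RACK1, a ribosome-bound scaffold. SNORA10 and SNORA64 lay in gaps of RPS2 (1.35 in replicate 1 and 1.81 in replicate 2), SNORD83A in RPL3 (1.14) and SNORD95 in RACK1 (1.09). The folds of these 4 peaks were under 2. Of the miRNA gaps, 3 were found in replicate 1 and 8 in replicate 2, and none in both, and 10 of the 11 miRNAs were listed in the miRNA table, each on the strand of its host.

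In 5 of the 11 the hairpin ended exactly at the downstream edge of the gap, the place where a mirtron, a hairpin cut out by splicing, would end. The MIR1225 hairpin filled the whole gap of 90 bp in PKD1, the polycystin-1 gene, from 2090195 to 2090284 on chromosome 16 (fold 3.88, replicate 2). The others were MIR6805 in RPL28, MIR6779 in LASP1 (fold 1.98), MIR6883 in the clock gene PER1 (fold 6.33) and MIR6843 in CLU (fold 1.5), all in replicate 2. The mature sequences of the first 4 in RefSeq (GRCh38.p14) are shown to compare their ends with the gap, with the seed (bases 2 to 8) in capitals.
hsa-miR-1225-5p: gUGGGUACggcccagugggggg
hsa-miR-1225-3p: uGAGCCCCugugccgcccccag
hsa-miR-6805-5p: uAGGGGGCggcuuguggagugu
hsa-miR-6805-3p: uUGCUCUGcucccccgcccccag
hsa-miR-6779-5p: cUGGGAGGggcuggguuuggc
hsa-miR-6779-3p: aAGCCCUGucuccucccaucu
hsa-miR-6883-3p: uUCCCUAUcucacucuccucag
Of the 17 mature miRNAs listed for these gaps, 3 ended on the last base of the gap, and all 3 end in AG. These were miR-1225-3p, miR-6805-3p and miR-6883-3p, while miR-6779-3p ends before the edge. No seed was shared among the 17. The peaks lie on the exon blocks and not on the hairpins, so these values say nothing of the level or modification of the miRNAs.

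At the limit of the rule, the gaps just inside it included those of SQSTM1, the autophagy receptor p62 (4982 bp, folds 2.40 and 2.20) and PRPSAP1 (4952 bp, fold 1.88 in replicate 2). Those just outside it were DGAT1, an enzyme of triglyceride synthesis (5028 bp, fold 5.54 in replicate 2), DOC2B (5037 bp, fold 66.8 in replicate 1) and LOXL4 (5080 bp, fold 7.42 in replicate 1).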

How the data were processed

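Peak lists of the 2 m7G IP samples were used as deposited, 1 list per sample. Per the submitters' processing notes, the tool STAR and build GRCh38 were used, with no role or version given. How peaks were called, filtered and set against input is not given in the sources used here. Fold enrichment was deposited as a ratio, each peak has a deposited p-value, and the deposited log10 of p was used as a score with its sign turned. The blocks, per the file headers, gave gaps and lengths, with coordinates counted from 1.

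Genes were matched to RefSeq spans (GRCh38.p14) by symbol (479 and 713 short-gap peaks) or older symbol (21 and 32), and 0 were unmatched. Midpoints were taken along the blocks, and distances are genomic. Windows at the gene ends had no lower bound, so a midpoint beyond an end counted as near it in all such shares. Reads of near-identical genes, such as PKD1 and its pseudogenes, SLX1A and SLX1B, or ribosomal protein genes, cannot be told apart. Genes named are the 12 shared gaps with the best lower rank by fold, the 8 by -log10 p, the 5 with the largest ratio, up to 3 per gene list, the gaps nearest to the limits, the genes with the most gaps, and METTL1, WDR4 and QKI. A few genes picked by these criteria are not reported here. Other genes named, such as those of printed edges, small RNAs and the highest folds, were chosen after their values were seen. The members and the 20 gene lists were chosen with earlier results of these data known. No test was run across the 2 lists or over peaks, and Wilson intervals (95%) cover counting error only. The comparison of gap ends and the overlap count were checked on simulated copies of short-gap peaks of replicate 1. The matching of genes and strands between the lists was not part of that check. Alternatives were stricter p, other overlaps, block sizes, gap limits, lengths and windows. The software was pandas 2.3.3, numpy 2.4.6, matplotlib 3.10.9 and scipy 1.17.1 under Python 3.11.15.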

Additional observations from a re-analysis of the deposited data

How the results depend on the processing

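Of 57 alternative values, 0 changed sign and 19 moved by more than the spread between the lists. Most of these values are shares, gap lengths or counts, which cannot be negative. Only the differences and rank correlations could have changed sign. With 1 list left out, which by construction stays within that spread, the share of short-gap peaks ranged from 14.9 to 15.7%, overlap from 47.1 to 69.0%, identical gaps from 37.0 to 57.0%, the fold difference from -0.555 to -0.46, the length difference from 1 to 30 nt, the 5' share from 20.7 to 28.4%, the 3' share from 1.07 to 1.20% and the median gap from 639 to 666 bp. With only the peaks of smallest p, 50% of a list, the share of short-gap peaks was 17.8% (15.3% with all peaks), overlap 77.2% (58.1%), the fold difference -0.943 (-0.51), the 5' share 30.6% (24.5%) and the 3' share 1.38% (1.14%). With smaller blocks of at least 25 nt, the fold difference was -0.383, the 3' share 0.523% and the median gap 623.5 bp. With a gap limit of 1000 bp, fewer peaks pass by construction, and the share was 9.45%, the fold difference -0.575, the 3' share 1.73% and the median gap 296 bp. For peaks of 100 to 300 nt the fold difference was -0.675 and the 3' share 1.46%. The fold difference was -0.335 without 5'-end peaks and -0.615 against long-gap peaks. With 80% reciprocal overlap, 26.3% overlapped. A window of 500 nt, wider by construction, gave 35.1% at the 5' end and 3.48% at the 3' end. Where construction does not show it, the cause was not tested. No paired analysis was possible because the peak lists cover the IP samples alone. Unknown read depth limits which peaks could be called.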

Other observations

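Several genes carried more than 1 short gap. In replicate 1, 36 genes had 2 or more distinct gaps, and in replicate 2, 59. PKD1 had the most, 6 gaps of 90 to 602 bp, all in replicate 2, with folds from 2.56 to 9.84 and no peak in replicate 1. Near-identical pseudogenes of PKD1 exist, so reads of these copies cannot be told apart from its own. The anion exchanger gene SLC4A2 had 4 gaps, with folds from 1.92 to 2.19, and none of them was in both lists. TNRC18 also had 4 gaps, 2 of them in both lists, with folds of 4.07 and 3.47 at one and 8.24 and 8.13 at the other. A2M had 3 gaps, and at the gap of 2906 bp its folds were 1.20 and 1.38 with -log10 p of 20.6 and 50.3, against 5.63 and 3.40 at the gap of 2220 bp nearer its 5' end.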
